A study of Rattus norvegicus with 56 samples.

Results

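MiR-103-3p and miR-107-3p are a pair of near-identical microRNAs that are made from introns of the pantothenate kinase genes. Rows were chosen by name, with the species prefix removed, and both members were listed in all 5 deposited count tables, as 2 of the 682 microRNAs listed in the series. They were picked because both were higher in the amniotic fluid of the VSD group than in that of the NC group, so their amniotic fluid values are given below as a description with no test.

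The samples came from Sprague-Dawley rats at D19 of gestation. Dams in the DMO groups received dimethadione (DMO), a teratogen, by gavage in 6 doses of 5 ml/kg at 60 mg/ml, 12 h apart, from D8, and dams of the negative control (NC) group received distilled water. VSD denotes DMO-exposed fetuses with a ventricular septal defect, and non-VSD denotes DMO-exposed fetuses whose septum was intact. Myocardium and amniotic fluid had 7 samples each of NC, non-VSD and VSD, and maternal serum had 7 samples each of NC and VSD, which gave 56 samples in 8 groups. Serum came from the dams, and those of the VSD group had received DMO themselves. With no non-VSD serum, DMO and the fetal defect cannot be told apart in that tissue. The study asked how circulating microRNAs relate to those of the fetal heart when a VSD is present. The dam of each fetus is not given in the labels, so the tests measure the spread between these samples, some of which may share a litter.

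Pantothenate kinases catalyse the first step of coenzyme A synthesis, and their introns carry the miR-103 and miR-107 hairpins. The mature 3p strands are found in nearly all tissues and are known as regulators of metabolic and insulin-related genes and of Dicer, the enzyme that cuts microRNA hairpins. A microRNA recognises its targets mainly through its seed, bases 2 to 8 from the 5′ end, so that members with one seed are expected to share most targets.

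The sequences below show how little separates the members, and how their 5′ ends relate to the wider miR-15 and miR-107 group. They were taken from RefSeq (GRCr8). Capitals mark the seed and, in the members, the base that differs.
miR-103-3p: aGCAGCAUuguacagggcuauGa
miR-107-3p: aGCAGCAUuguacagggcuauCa
miR-15b-5p: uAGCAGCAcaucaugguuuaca
miR-16-5p: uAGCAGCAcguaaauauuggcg
miR-195-5p: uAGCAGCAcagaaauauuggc
miR-322-5p: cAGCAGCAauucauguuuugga
miR-497-5p: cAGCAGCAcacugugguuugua
miR-503-5p: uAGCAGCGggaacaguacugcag

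The members were identical at 22 of 23 bases and differed by G22C, counted from 1 at the 5′ end of miR-103-3p. Among the 724 mature entries of the RefSeq table, these 2 were the entries with the seed GCAGCAU. In the other 6 printed microRNAs the first 6 bases of the members occurred 1 base later, so their seeds overlapped with that of the members without being the same. A read that ends within the first 21 bases cannot be assigned to one member, and how the authors assigned such reads is not given in the sources used here. For that reason each comparison was also run with the counts of both summed.

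The mature sequence of miR-103-3p occurred in hairpins at both of its loci. In GRCr8 it lay at chr3:138963278-138963300 on the plus strand, in Mir103a2 within the span of Pank2, and at chr10:20748525-20748547 on the plus strand, in Mir103a1 within the span of Pank3. MiR-107-3p lay at chr1:241750431-241750453 on the minus strand, in Mir107 within the span of Pank1. Each hairpin was on the strand of the gene that spans it. Since both miR-103 loci yield one mature sequence, the counts do not divide between Pank2 and Pank3.

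Depth differed strongly between tissues. Counts assigned to microRNAs ranged from 1694811 to 9371130 per sample in myocardium, from 147609 to 581350 in maternal serum and from 78188 to 331787 in amniotic fluid. MiR-103-3p had 10710 to 62542 reads per sample in myocardium, 185 to 4262 in amniotic fluid and 100 to 978 in serum. MiR-107-3p had 795 to 6020, 89 to 1157 and 19 to 130 reads, so serum was the tissue in which its counting error was largest. Levels are given as CPM, which are reads set to a common library total of 1e+06, with that total adjusted by TMM so that most microRNAs do not shift between samples. Amniotic fluid libraries used another kit and sequencer than the other tissues, so a difference in level between fluid and tissue cannot be told apart from a difference between kits.

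In myocardium, miR-103-3p was among the abundant microRNAs and miR-107-3p was much lower. By median CPM they ranked 26 and 118 of 661 in myocardium, 39 and 64 of 523 in amniotic fluid, and 65 and 133 of 518 in maternal serum. Across all samples of a tissue, median miR-103-3p was 6312 CPM in myocardium, 4960 CPM in amniotic fluid and 824 CPM in serum. Median miR-107-3p was 406 CPM in myocardium, 2122 CPM in amniotic fluid and 149 CPM in serum. The order of the tissues thus differed between the members: miR-103-3p was highest in myocardium, with ranges that overlapped those of amniotic fluid, and miR-107-3p was highest in amniotic fluid, with no overlap with myocardium.

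**Figure D1:**
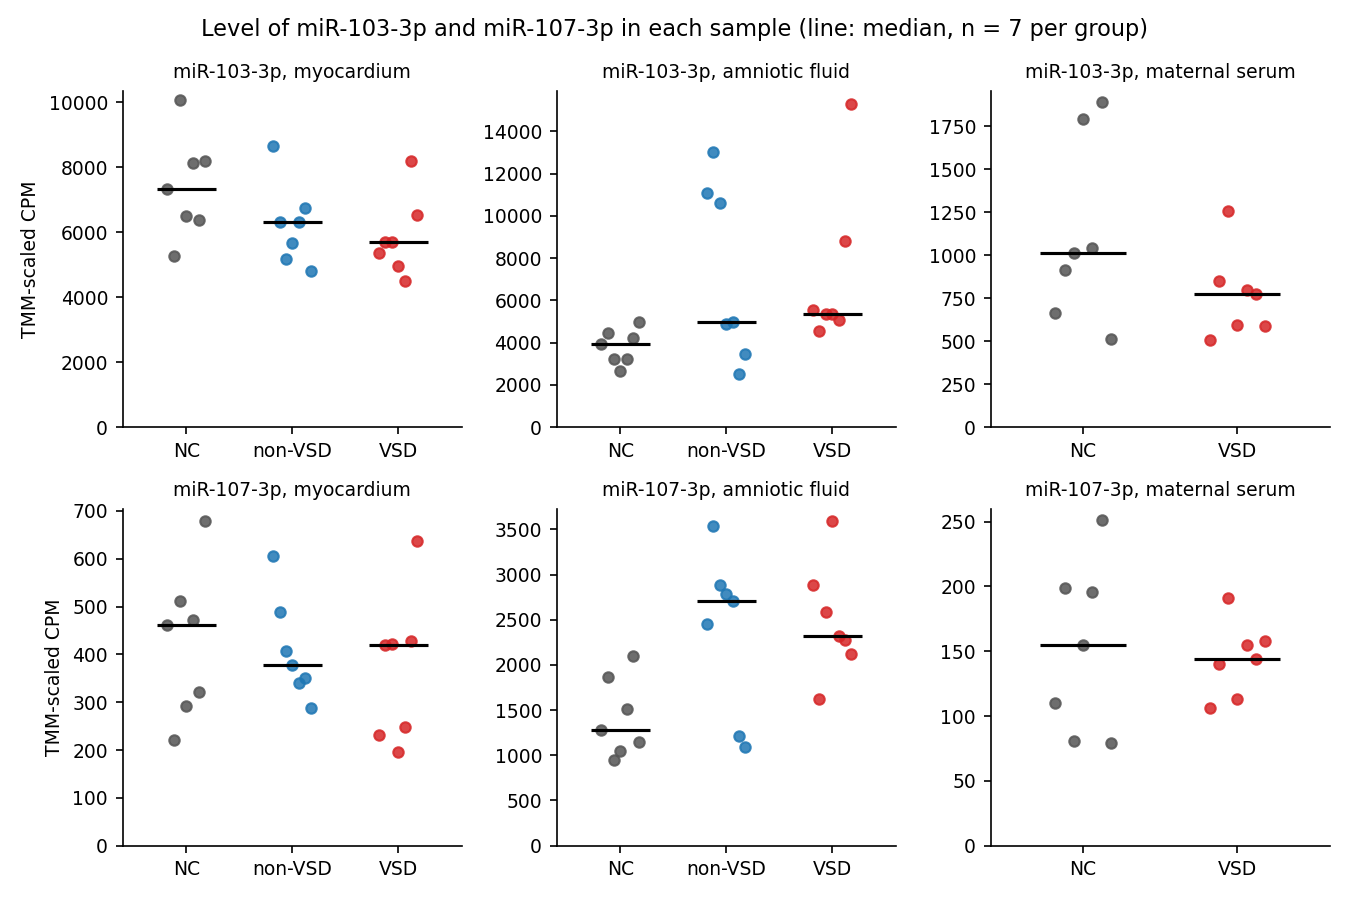
TMM-scaled CPM of miR-103-3p (upper row) and miR-107-3p (lower row) in each sample of myocardium, amniotic fluid and maternal serum; every axis starts at 0 and points are single samples, with lines at the group medians (n = 7). In amniotic fluid, 6 of 7 VSD samples lie above every NC sample for each member, while the groups overlap in the other tissues.

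The balance of the pair differed between tissues. In myocardium the ratio of miR-103-3p reads to miR-107-3p reads had a median of 17.2 and ranged from 10.3 to 25.5. In maternal serum it had a median of 5.71, with a range of 3.73 to 12.6. In amniotic fluid the median was 2.51, with a range of 1.49 to 7.21. Among the NC samples alone, the amniotic fluid ratios (2.01 to 4.31) overlapped neither those of serum (4.61 to 12.6) nor those of myocardium (12.1 to 23.7), and the latter 2 ranges overlapped. The ratio is one of reads, which need not equal that of molecules. As with the levels, a difference in ratio between amniotic fluid and the other tissues cannot be told apart from one of kit and sequencer. Only myocardium was paraffin-embedded, so its ratio cannot be told apart from an effect of that treatment.

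The spread of the ratio within a group holds the variation between animals as well as counting error. In myocardium the SD of the log2 ratio was 0.33 in NC, 0.24 in non-VSD and 0.47 in VSD, against about 0.03 expected from counting error in each. In amniotic fluid the SD was 0.40 in NC, 0.55 in non-VSD and 0.76 in VSD, against 0.13, 0.11 and 0.10. In serum it was 0.55 in NC against 0.23, and 0.26 in VSD against 0.27.

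**Figure D2:**
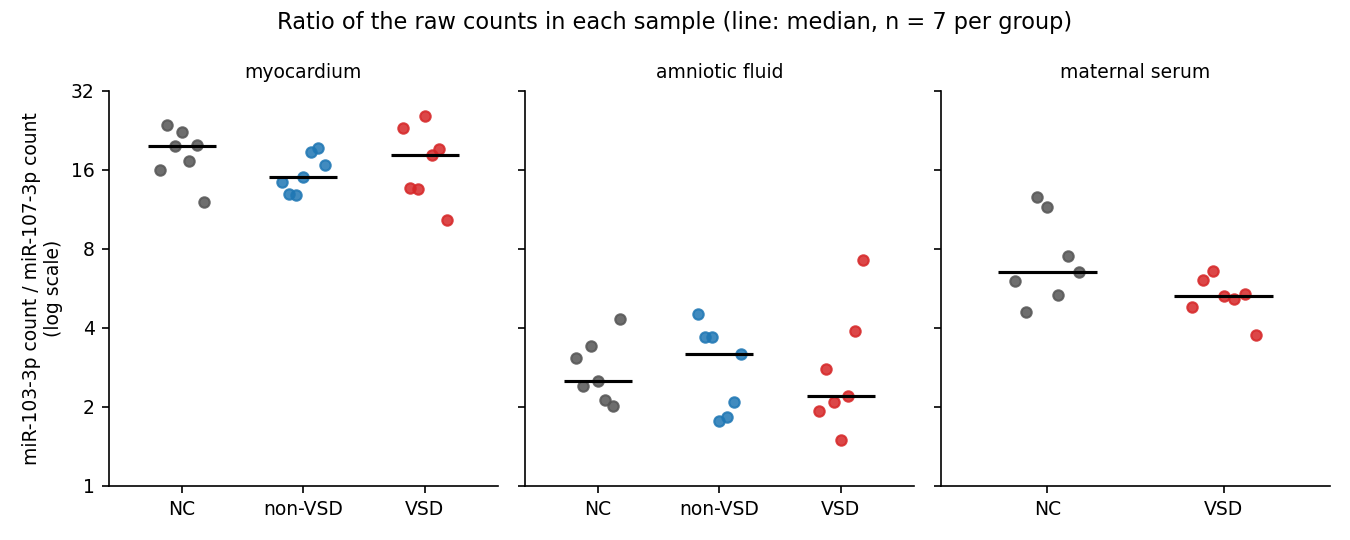
Ratio of miR-103-3p reads to miR-107-3p reads in each sample (vertical axis on a log scale), by tissue and group, with lines at the group medians (n = 7). The myocardium samples lie between 10.3 and 25.5, and the amniotic fluid samples between 1.49 and 7.21.

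In amniotic fluid, both members were higher in the VSD group than in the NC group, which is the difference they were chosen for. MiR-103-3p ranged from 2635 to 4967 CPM in NC (median 3918) and from 4530 to 15293 CPM in VSD (median 5359). Each of the 7 VSD samples exceeded the median of NC, and 6 were above every NC sample. MiR-107-3p ranged from 943 to 2095 CPM in NC (median 1281) and from 1627 to 3593 CPM in VSD (median 2317), again with 7 samples above the NC median and 6 above every NC sample. At least 6 of 7 VSD samples above every NC sample was seen for 0.733% of the 273 microRNAs that passed the filter on low counts, and the 2 microRNAs were the members, from which nothing is read since the choice used this contrast.

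The log2 fold change of VSD over NC was 0.92 for miR-103-3p (SE 0.28, 1.90-fold) and 0.84 for miR-107-3p (SE 0.26, 1.79-fold). These ranked 25 and 28 from the highest of the 245 microRNAs in that fit. The mean log2 ratio of the members differed by -0.03 (SE 0.32) between the groups, an error too wide to show that they were raised alike.

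The non-VSD group, whose fetuses had received DMO but had an intact septum, was raised too. MiR-103-3p ranged from 2528 to 13034 CPM (median 4960), with 5 of 7 samples above the NC median and 3 above every NC sample, counts for which no share over all microRNAs was taken. MiR-107-3p ranged from 1089 to 3538 CPM (median 2712), with 5 of 7 samples above every NC sample, as was the case for 4.03% of the 273 microRNAs. The log2 fold change over NC was 1.01 for miR-103-3p (SE 0.35, 2.01-fold) and 0.86 for miR-107-3p (SE 0.31, 1.81-fold). This comparison shares its NC samples with the one above. Between VSD and non-VSD, the log2 fold change was -0.02 for miR-103-3p (SE 0.35) and 0.06 for miR-107-3p (SE 0.28), and the ranges of these groups overlapped.

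The amniotic fluid was supernatant, from which cells had been spun out. The high values of miR-103-3p in both DMO groups were held by a few samples. VSD replicates 7 and 6 held 15293 and 8794 CPM, and non-VSD replicates 2, 1 and 3 held 13034, 11064 and 10617 CPM, while no other amniotic fluid sample was above 5562 CPM. The same 5 of 21 samples had the 5 highest summed levels of the white blood cell microRNAs (miR-142-3p, miR-142-5p, miR-223-3p and miR-150-5p), from 16533 to 32486 CPM, against 534 to 7342 CPM in the remaining samples. They also had the 5 highest sums of the red blood cell microRNAs (miR-144-3p, miR-144-5p, miR-451-5p, miR-451-3p and miR-486), from 66565 to 143927 CPM. Red blood cell sums had a median of 22339 CPM in NC, 63811 CPM in non-VSD and 40554 CPM in VSD. All 5 markers were listed, with miR-451-3p at 0 in every NC sample. Most of the sum was miR-486, with medians of 21232, 56009.5 and 39345 CPM in these groups. The medians of miR-451-5p were 521, 2149 and 463 CPM, although its edgeR log2 fold change for VSD over NC was 1.62 (SE 0.79). White blood cell sums had a median of 2968 CPM in NC, 7342 CPM in non-VSD and 2820 CPM in VSD. In the same order, the medians of miR-142-3p were 695, 5790 and 1932 CPM, and those of miR-142-5p 14.5, 74.7 and 86.4 CPM. Those of miR-223-3p were 864, 1320 and 711 CPM, and those of miR-150-5p 789, 1489 and 487 CPM. For VSD over NC, the edgeR log2 fold change was 2.36 (SE 0.85) for miR-142-3p, -0.32 (SE 0.53) for miR-223-3p and 0.52 (SE 0.81) for miR-150-5p. The part of blood cells in the level of miR-103-3p was not tested.

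MiR-107-3p followed these samples less. Of its 5 highest samples, 2 were among the 5 highest for white blood cell microRNAs and 2 among those for red blood cell microRNAs. Its highest level was in VSD replicate 4, which had the highest sums of the heart and skeletal muscle list (280473 CPM) and of the liver list (43023 CPM) in amniotic fluid, and one of the lower white blood cell sums (1331 CPM). The largest count of the muscle list in any amniotic fluid sample was 54774 for miR-206-3p, then 1133 for miR-1-3p. In the liver list it was 8161 for miR-122-5p, then 1795 for miR-192-5p. The highest sums thus rested mainly on miR-206-3p and miR-122-5p, not on each list as a whole. In that sample miR-107-3p made up 40.1% of the pair's reads (95% Wilson interval 37.9% to 42.4%, counting error only), and in VSD replicate 7 it made up 12.2% (10.9% to 13.6%). None of the 5 highest samples for epithelial microRNAs was among the 5 highest for either member. The part of these tissues in the level of miR-107-3p was not tested.

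**Figure D3:**
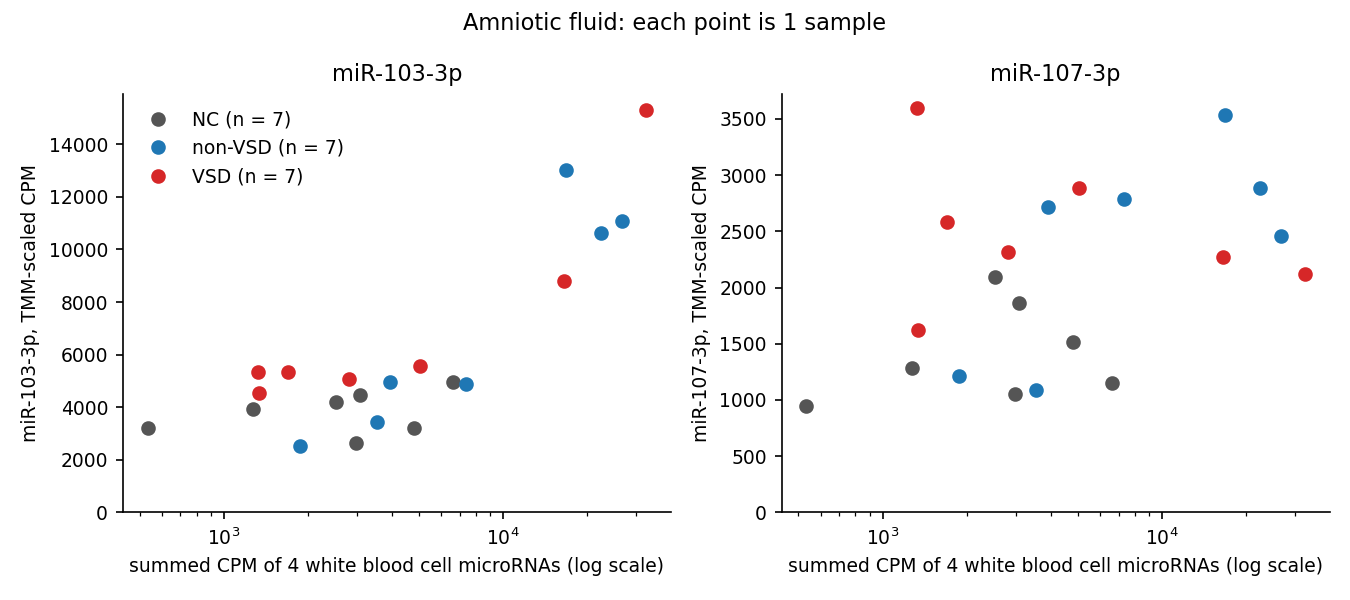
Level of miR-103-3p (left) and miR-107-3p (right) in TMM-scaled CPM against the summed CPM of 4 white blood cell microRNAs (log scale) in the amniotic fluid samples, coloured by group (n = 7 each). The 5 samples with a white blood cell sum over 10000 CPM are those with the highest miR-103-3p, whereas miR-107-3p is highest in a sample with a sum of 1331 CPM.

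When the 5 samples with a white blood cell sum over 10000 CPM were left out, an alternative chosen after seeing the data, the log2 fold change of miR-103-3p became 0.52 (SE 0.23) for VSD over NC and 0.14 (SE 0.29) for non-VSD over NC. As these were also the 5 samples with the highest miR-103-3p, all from DMO groups, a smaller difference was bound to follow, and the values show only how much of it these samples carried. The log2 fold change of miR-107-3p was 0.98 (SE 0.29) and 0.56 (SE 0.37). Between VSD and non-VSD the values were then 0.37 (SE 0.28) for miR-103-3p and 0.40 (SE 0.37) for miR-107-3p. Without VSD replicate 7 alone, miR-103-3p was 0.62 and miR-107-3p 0.87 for VSD over NC.

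In myocardium, neither member passed the test in either DMO group, and the levels overlapped. MiR-103-3p ranged from 5267 to 10089 CPM in NC (median 7331), from 4807 to 8651 CPM in non-VSD (median 6311) and from 4516 to 8207 CPM in VSD (median 5689). Of the 7 VSD samples, 6 were below the NC median and 2 below every NC sample, and the same counts held in non-VSD. The share of all microRNAs with such counts was not taken, so nothing is read from them. MiR-107-3p ranged from 222 to 680 CPM in NC (median 461), from 288 to 605 CPM in non-VSD (median 377) and from 195 to 636 CPM in VSD (median 419).

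For VSD over NC in myocardium, the edgeR log2 fold change of miR-103-3p was -0.34 (SE 0.17, 95% interval -0.71 to 0.03, adjusted p = 0.275). That of miR-107-3p was -0.20 (SE 0.30, interval -0.83 to 0.44, adjusted p = 0.727). Across the 469 microRNAs in the fit, 0.426% passed an adjusted p under 0.05 and 19.2% an unadjusted p under 0.05. For non-VSD over NC the values were -0.21 for miR-103-3p (SE 0.17, interval -0.57 to 0.15, edgeR adjusted p = 0.589) and -0.002 for miR-107-3p (SE 0.24, interval -0.52 to 0.51, adjusted p = 0.998), where 0.219% of 456 microRNAs passed the adjusted and 17.5% the unadjusted threshold.

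The sign of the myocardium values depended on the scaling, which moved all microRNAs together. With library totals in place of TMM, the median over all microRNAs shifted by 0.37 for VSD over NC and by 0.20 for non-VSD over NC on the log2 scale, and miR-103-3p became 0.080 and 0.032 and miR-107-3p 0.21 and 0.24. Relative to the median of all microRNAs, miR-103-3p was at -0.30 with TMM and -0.24 with library totals for VSD over NC, and at -0.14 and -0.09 for non-VSD over NC. MiR-107-3p was at -0.15 and -0.11 for VSD over NC, and at 0.07 and 0.12 for non-VSD over NC. Red blood cell sums in myocardium had a median of 33798 CPM in NC, 7004 CPM in non-VSD and 7524 CPM in VSD, and their part in the members' levels was not tested. In such bulk tissue, fewer cells of a type and less RNA per cell cannot be told apart. The heart and skeletal muscle microRNAs were all listed, with a median sum of 39111 CPM in NC, 41897 CPM in non-VSD and 20282 CPM in VSD. The 8 epithelial microRNAs had median sums of 1366 CPM in NC, 1697 CPM in non-VSD and 3265 CPM in VSD. All 8 had a positive log2 fold change for VSD over NC (median 1.20) and over non-VSD (median 1.61). The medians of all microRNAs tested were -0.05 and 0.02. For non-VSD over NC all 8 were negative (median -0.25). At an adjusted p under 0.05 edgeR called 0 of the 8 in each of these comparisons. At an unadjusted p under 0.05 it called 0 of 8 for VSD over NC, where 19.2% of all microRNAs passed. For VSD over non-VSD it called 2 of 8, where 11.6% of all passed.

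In myocardium 3 samples stood apart by a muscle sum under 10000 CPM, namely NC replicate 2 (4231 CPM), VSD replicate 1 (5455 CPM) and VSD replicate 4 (7561 CPM), against 19675 CPM or more in the others. They also had the 3 highest epithelial sums, from 12121 to 15251 CPM, and the 3 highest ratios of miR-103-3p to miR-107-3p, at 23.7, 23.1 and 25.5. The split was not clean. VSD replicate 5 had an epithelial sum of 11597 CPM with a ratio of 18.2. NC replicate 4 had a ratio of 22.3 with an epithelial sum of 2294 CPM and a muscle sum of 39111 CPM. The part of tissue composition in the ratio was not tested. Without the 3 samples of low muscle sum, an alternative added after seeing the data, the log2 fold change for VSD over NC was -0.36 for miR-103-3p (SE 0.21, edgeR adjusted p = 0.294) and -0.11 for miR-107-3p (SE 0.30, adjusted p = 0.860). For non-VSD over NC, where only NC replicate 2 was left out, it was -0.28 (SE 0.17, edgeR adjusted p = 0.408) and -0.11 (SE 0.23, adjusted p = 0.839).

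VSD and non-VSD fetuses were both DMO-exposed and were sorted by outcome, so the defect cannot be told apart from other differences between them. Between VSD and non-VSD myocardium, the log2 fold change was -0.09 for miR-103-3p (SE 0.17, interval -0.44 to 0.26) and -0.15 for miR-107-3p (SE 0.27, interval -0.71 to 0.42), with an edgeR adjusted p of 0.783 for each. The value of miR-103-3p became 0.048 with library totals in place of TMM, and that of miR-107-3p became 0.058 without the 3 samples of low muscle sum. In this fit of 483 microRNAs, edgeR called 0 at an adjusted p under 0.05 (0.00%) and 56 at an unadjusted p under 0.05 (11.6%), and DESeq2 and limma called 0 at an adjusted p under 0.05.

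In maternal serum the members were also not past the threshold. MiR-103-3p ranged from 515 to 1889 CPM in NC (median 1013) and from 508 to 1255 CPM in VSD (median 776), and 6 of 7 VSD samples were below the NC median. Here too the share of all microRNAs with that count was not taken. MiR-107-3p ranged from 79.3 to 251 CPM in NC (median 155) and from 106 to 191 CPM in VSD (median 144), so that all VSD samples lay within the NC range. The log2 fold change was -0.54 for miR-103-3p (SE 0.29, interval -1.14 to 0.06, edgeR adjusted p = 0.447) and -0.09 for miR-107-3p (SE 0.27, interval -0.66 to 0.48, adjusted p = 0.894). Of the 219 microRNAs in the fit, edgeR called 0 at an adjusted p under 0.05 (0.00%) and 30 at an unadjusted p under 0.05 (13.7%), while DESeq2 called 3 and limma 0 at an adjusted p under 0.05. Serum and myocardium were compared by the change in mean log2 CPM from NC to VSD, which is not the edgeR value. For miR-103-3p this change was -0.46 in serum and -0.34 in myocardium, and for miR-107-3p it was 0.009 and -0.22. The serum change was not distinguished from the myocardium change: they differed by -0.12 for miR-103-3p and by 0.23 for miR-107-3p (two-sided permutation test over 100000 resamples, adjusted p = 0.743 for each).

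**Figure D4:**
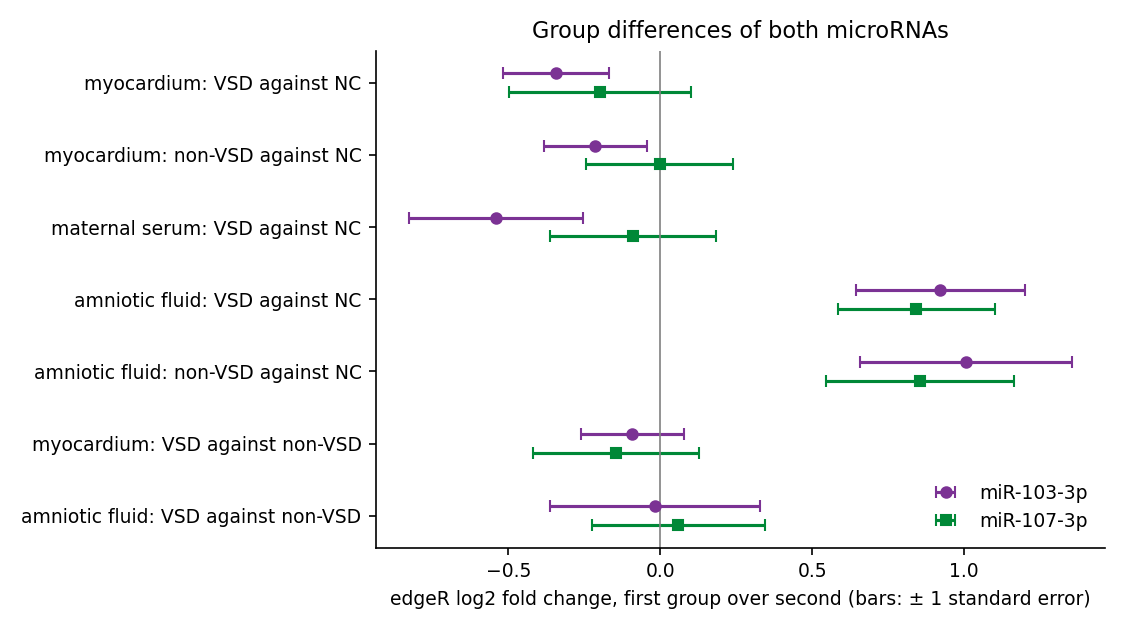
Log2 fold change (edgeR) of miR-103-3p (circles) and miR-107-3p (squares) in each comparison, first group over second; bars are ± 1 standard error (7 samples per group). Values lie between 0.84 and 1.01 in the 2 amniotic fluid comparisons with NC, of which that of VSD was used to choose the members, and between -0.54 and 0 in those of myocardium and serum, where those of myocardium over NC turn positive (0.032 to 0.24), as does miR-103-3p for VSD over non-VSD (0.048), when scaled by library size only, which also shifts the median of all microRNAs upward.

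The ratio of the members needs no scaling, and 3 differences of it were tested by exact two-sided permutation over 3432 groupings. In serum the mean log2 ratio was 2.38 in VSD and 2.86 in NC, a difference of -0.48 (SE 0.23, exact p = 0.0635, adjusted p = 0.191), with 6 of 7 VSD samples below the NC median. Without NC replicate 2, NC replicate 5 or VSD replicate 3, the exact unadjusted p in serum was 0.0152, 0.0373 and 0.0490, and over all 14 samples left out it ranged from 0.0152 to 0.131. In non-VSD myocardium the difference was -0.24 (SE 0.15, exact p = 0.143, adjusted p = 0.215), with 7 of 7 samples below the NC median, and the exact unadjusted p ranged from 0.0245, without NC replicate 7, to 0.262 over the 14 samples left out. In VSD myocardium it was -0.12 (SE 0.22, exact p = 0.587), with 5 of 7 samples below the NC median. Without the 3 samples of low muscle sum, the difference in VSD myocardium was -0.27 (exact unadjusted p = 0.232). In non-VSD myocardium, where NC replicate 2 was the only one of them, it was -0.18 (exact unadjusted p = 0.262).

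The other strands of the hairpins were close to absent. MiR-103-1-5p, miR-103-2-5p and miR-107-5p were listed for myocardium, with 9, 7 and 73 reads in total over 21 samples, and none passed the filter on low counts. They were not among the rows for amniotic fluid or serum. In myocardium the 3p strands of the same hairpins had 10710 or more (miR-103-3p) and 795 or more (miR-107-3p) reads in every sample.

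The relatives in the miR-15 and miR-107 group control the cell cycle and apoptosis and miR-195 has been linked to the exit of cardiomyocytes from the cell cycle around birth. Of the 8 relatives looked for, 7 were listed and miR-424-5p was not. By edgeR 0 passed an adjusted p under 0.05 in any comparison. At an unadjusted p under 0.05 there were 2 of 7 in VSD over NC myocardium (19.2% of all microRNAs). In non-VSD over NC myocardium there were 2 of 7 (17.5% of all). In VSD over NC amniotic fluid there was 1 of 4, miR-322-5p, which was lower in VSD, beside 33 of 245 microRNAs in all. The other comparisons had 0. DESeq2 called 1 in VSD over NC myocardium (miR-497-5p) and 1 in non-VSD over NC myocardium (miR-322-5p) at an adjusted p under 0.05, where it called 48 of 469 and 49 of 456 microRNAs in all, and limma called 0 relatives. For VSD over NC myocardium, the median log2 fold change of the 7 was 0.28, beside -0.05 for all microRNAs tested, and 4 were positive. MiR-497-5p had 1.03 (SE 0.31, edgeR adjusted p = 0.0873) and miR-195-5p, from the same cluster, had 0.79 (SE 0.39, adjusted p = 0.266), whereas miR-15b-5p had -0.63 (SE 0.29, adjusted p = 0.243). In non-VSD myocardium, miR-322-5p had 0.67 (SE 0.21, edgeR adjusted p = 0.118) and miR-497-5p 0.73 (SE 0.28, adjusted p = 0.165).

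In amniotic fluid 4 of the 8 relatives entered the comparisons with NC. MiR-16-5p, which is abundant in blood cells, had 0.44 (SE 0.46) for VSD over NC and 0.21 (SE 0.38) for non-VSD over NC. MiR-15b-5p had 1.37 (SE 0.74, edgeR adjusted p = 0.424) and 0.92 (SE 0.79, adjusted p = 0.601). MiR-503-5p had -0.13 (SE 0.29) and -0.57 (SE 0.35). MiR-322-5p had -0.80 (SE 0.32, edgeR adjusted p = 0.251) and -0.69 (SE 0.33, adjusted p = 0.254). The median of the 4 was 0.15 for VSD and -0.18 for non-VSD, beside -0.06 and 0.11 for all microRNAs tested. In maternal serum the 7 had a median of -0.26, beside -0.03 for all tested, and 5 were negative.

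MiR-103-3p is often used as a reference for quantitative PCR, so its spread between samples was set beside that of 8 other microRNAs used for this. In myocardium the SD of log2 CPM was 0.31 for miR-103-3p, rank 26 from the lowest of 483 and lower than in each of the 8 references, whose lowest was 0.36 for miR-361-5p. MiR-107-3p had 0.50, rank 173. In amniotic fluid the SD was 0.73 for miR-103-3p (rank 74 of 273) and 0.60 for miR-107-3p (rank 39), and the lowest among the references were 0.46 for miR-425-5p and 0.48 for miR-93-5p. The groups were pooled, so the amniotic fluid SD of each member holds the group difference they were chosen for. Nothing is read from how it compares with the references. In maternal serum miR-103-3p had 0.60 (rank 137 of 219), above the median of 0.52 over all microRNAs, miR-107-3p had 0.47 (rank 87), and let-7i-5p had 0.29 and miR-425-5p 0.31.

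**Figure D5:**
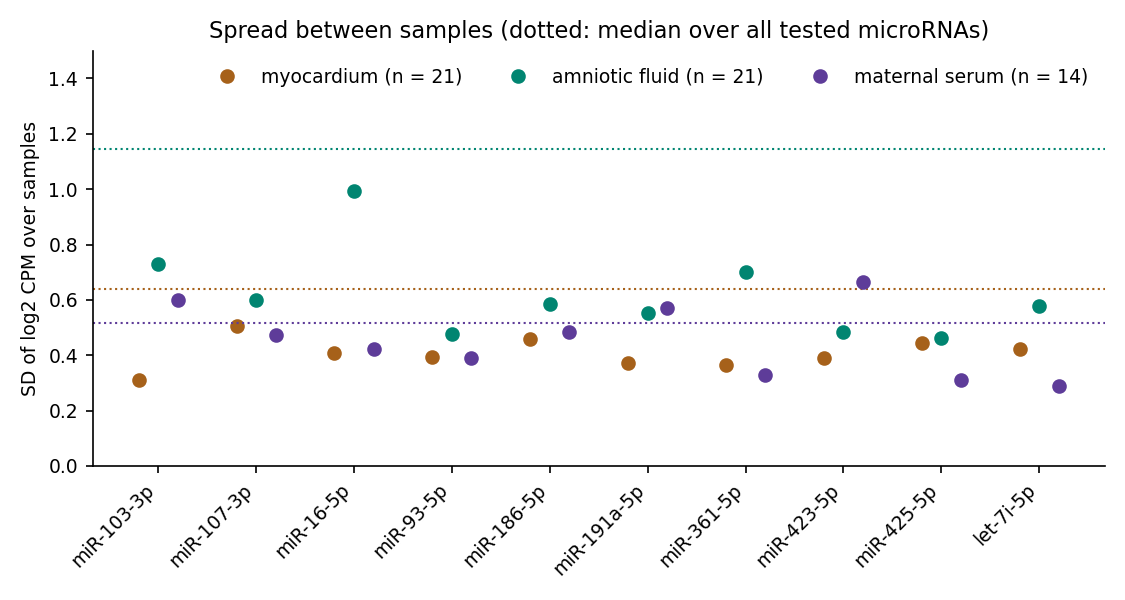
SD of log2 CPM over the samples of each tissue (groups pooled) for miR-103-3p, miR-107-3p and 8 microRNAs used as references in quantitative PCR; dotted lines are the medians over all microRNAs tested in that tissue. MiR-103-3p lies lowest of the 10 in myocardium (0.31) and above the median of all microRNAs in maternal serum (0.60 against 0.52).

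The microRNAs most like each member were found by the root mean square difference of their log2 levels over samples, after centring each microRNA on its mean. In myocardium (21 samples, 482 microRNAs compared), those nearest to miR-103-3p were miR-191a-5p (0.21), miR-339-5p (0.23) and miR-26a-5p (0.23), and miR-107-3p ranked 40 (0.35). Those nearest to miR-107-3p were miR-425-3p (0.24), miR-877 (0.24) and miR-3068-3p (0.27), with miR-103-3p at rank 11. In amniotic fluid (21 samples, 272 compared), where the members were chosen for being higher together, miR-107-3p ranked 3 for miR-103-3p, after miR-93-5p (0.48) and miR-92a-3p (0.54), and miR-103-3p ranked 1 for miR-107-3p, at 0.54. By size the difference between the members was 0.35 in myocardium, 0.46 in serum and 0.54 in amniotic fluid. In maternal serum (14 samples, 218 compared), miR-26a-5p (0.26), miR-30c-5p (0.26) and miR-30e-5p (0.28) were nearest to miR-103-3p, and miR-93-5p (0.30), miR-16-5p (0.36) and miR-106b-3p (0.37) to miR-107-3p, and each member was at rank 20 or 25 for the other. These are descriptions over samples that share library depth and group.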

How the data were processed

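Small RNA libraries of rat myocardium (paraffin-embedded), amniotic fluid supernatant and maternal serum were sequenced by the authors, on the HiSeq platform for myocardium and serum and on the NovaSeq platform for amniotic fluid. The authors' processing notes name bcl2fastq 2.19 and DESeq, and the methods name FASTX-Toolkit for quality filtering. The aligner, microRNA annotation and genome build, and the use of molecular identifiers, are not given in the sources used here. The authors deposited raw read counts per mature microRNA in 5 tables, each with a DMO group and its NC group; the 7 NC samples were identical in paired tables and were used once. The authors' normalised columns and their fold changes and p-values were not used.

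Counts were analysed with edgeR 4.0.16 in R 4.3.3 (filterByExpr at its defaults, which ask for 10 reads in enough samples and 15 in all, TMM, quasi-likelihood test, two-sided), fitted over all microRNAs with Benjamini-Hochberg adjustment over all tested. For VSD over non-VSD the 3 groups of a tissue entered one model; amniotic fluid rows absent from a table were set to 0 there. Log2 CPM used a prior count of 2. A count of 0 allows up to 3 reads, at most 1.77 CPM in myocardium, 20.3 in serum and 38.4 in amniotic fluid. Alternatives used DESeq2 1.42.0, limma 3.58.1 on log2(CPM + 1), library-size scaling, no filter, a replicate block, summed counts and the omission of single samples. The fits were tested on simulated data. Figures were drawn with matplotlib 3.10.9 under Python 3.11.15.

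The members, the lists of related, reference and cell type microRNAs and the tests were chosen with earlier results of these data known. Named microRNAs are the members, the other arms of their hairpins, the tested relatives by count, and the 3 nearest in pattern; which relatives are given by value was decided after their values were seen.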

Additional observations from a re-analysis of the deposited data

Results flagged for a closer look

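Of 24 sets of 7 values screened (8 groups, with the level of each member and their ratio), 2 held a sample far from the others. Chance alone would give about 1 in 20 if the values were normally distributed, and the screen used CPM and ratios without a log transform. Both were amniotic fluid VSD replicate 7. Its miR-103-3p level of 15293 CPM was separated from the next sample (8794 CPM) by a gap of 0.604 of the group's range, and its ratio of miR-103-3p to miR-107-3p, 7.21, was separated from the next (3.87) by a gap of 0.584 of the range, against a critical value of 0.568. On the log2 scale used for the other results, the ratio was 2.85, the next 1.95 and the lowest 0.58. Neither gap reaches the critical value on that scale, so the flags depend on the scale. The sample had the highest white blood cell sum in amniotic fluid (32486 CPM), while its miR-107-3p level of 2122 CPM lay within the range of the group. The part of that sum in the level was not tested.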

How the results depend on the processing

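Of 119 alternatives other than leaving out 1 sample, 10 reversed the direction of a myocardium or serum value, 3 moved an amniotic fluid value by more than the spread between replicates, and 106 did neither. In amniotic fluid, where no test was made, VSD over non-VSD lay near 0 and changed sign for miR-103-3p with DESeq2 (0.013), limma (0.087), no filter (0.0074) and summed counts (0.0066), and for miR-107-3p with scaling by library size only (-0.059). No alternative of that kind brought a member past an adjusted p of 0.05 in myocardium or serum. With scaling by library size only, myocardium became 0.080 (miR-103-3p) and 0.21 (miR-107-3p) for VSD over NC, 0.032 and 0.24 for non-VSD over NC, and 0.048 (miR-103-3p) for VSD over non-VSD, and the serum change minus the myocardium change of miR-107-3p became -0.13; TMM and library-size medians differed by 0.37, 0.20 and 0.17 in the 3 myocardium comparisons. With limma, miR-107-3p became 0.033 for non-VSD over NC myocardium and 0.013 for serum. Without the 3 myocardium samples of low muscle sum, miR-107-3p became 0.058 for VSD over non-VSD. With the samples of high white blood cell sum left out, which are those of highest miR-103-3p, miR-103-3p in amniotic fluid became 0.52 (VSD over NC), 0.14 (non-VSD over NC) and 0.37 (VSD over non-VSD). Beyond these, the cause of each reversal was not tested.

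The deviations of same-numbered samples of a tissue had correlations from -0.62 to 0.47, and at most 2 of 7 samples correlated best with their own number. Between non-VSD and VSD myocardium, and between NC and VSD serum, 5 of 7 correlations were above 0.1. Pairing by number was thus not seen clearly, and this check cannot exclude a shared dam or batch. Numbers were compared within a tissue only. With the replicate block, miR-107-3p in non-VSD myocardium became 0.032, and no other direction or call changed under it.

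When single samples were omitted, the log2 fold changes of miR-103-3p and miR-107-3p ranged, for VSD over NC myocardium, from -0.48 to -0.30 and from -0.38 to -0.08; for non-VSD over NC myocardium, from -0.31 to -0.12 and from -0.12 to 0.13; for VSD over non-VSD myocardium, from -0.17 to 0.010 and from -0.31 to -0.02; for serum, from -0.67 to -0.34 and from -0.25 to 0.11. In amniotic fluid they ranged from 0.62 to 1.04 and from 0.72 to 0.94 for VSD over NC, from 0.79 to 1.16 and from 0.72 to 0.97 for non-VSD over NC, and from -0.32 to 0.19 and from -0.07 to 0.18 for VSD over non-VSD. The difference in log2 ratio ranged from -0.22 to 0.00035 in VSD myocardium, from -0.34 to -0.18 in non-VSD myocardium and from -0.59 to -0.34 in serum. Depth limits the serum values of miR-107-3p most, at 19 to 130 reads per sample.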
